A study of Mus musculus with 335 samples.

Results

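The genes described here are the core members of the Cdkn2a, p53 and RB pathways: Cdkn2a, Cdkn2b, Cdkn1a, Mdm2, Trp53, Rb1, Ccnd1 and Ccne1. They were taken by symbol and are 8 of the 20188 genes of the RNA-seq table. Expression was deposited as RPKM, reads scaled to transcript length and to library size, for 335 libraries from 281 mice or cell cultures in 61 groups. The study paired mouse mammary tumours with their metastases to look for expression that goes with metastasis across models. Libraries of 1 animal and tissue were averaged before any comparison.

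The models of interest express SV40 T antigen. C3Tag mice carry it as a transgene driven by a rat prostate protein promoter that is active in mammary epithelium, and gave primary tumours from 3 animals labelled with C3Tag, FVB or FVG strain names. M6 is a cell line from a C3Tag tumour, so the pair is not independent; it gave 6 orthotopic tumours with matched lung metastases, in mice labelled REAR, metastases after intracardiac injection in mice labelled FVB, and 3 cultures labelled BALB. They were set against 20 models whose driver labels do not name T antigen, called models without T antigen here. Among these, MMTV-PyMT, MMTV-Myc and MMTV-Neu tumours arose in transgenic mice whose MMTV promoter drives polyoma middle T, cMYC or Neu in mammary epithelium. PyMT tumours came from FVB (14 animals, 1 of them with the strain label MOLF) and from crosses labelled BL6 (6), BL10 (6), CAST (7) and MOLF (8). MMTV-Myc (6 animals) and MMTV-Neu (2) were labelled FVB. The other models were orthotopic allografts of cell lines, each 1 line. Met1 (PyMT, FVB, 7 tumours), 6DT1 (cMyc, FVB, 6), Mvt1 (cMYC and VEGF, FVB, 6) and HRM1 (Pik3ca, FVB, 4) had known drivers, while 4T1, 4T07 and 67NR (BALB, 6 each), D2A1, EMT6, F311 and TSAE1 (BALB, 4 each), E0771 (BL6, 4) and R3T (129S1J, 4) had a driver labelled unknown. For a driver labelled unknown, the labels do not state that T antigen is absent. The ages of the animals are not used here. No label says that the mice of 1 line came from separate cell cultures, so p-values measure the spread between these tumours. Each library of cultured cells is called a culture here, though the labels do not say that these were grown separately.

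Cdkn2a codes for a pair of proteins from different first exons. INK4A inhibits the cyclin D kinases that phosphorylate RB, and ARF inhibits MDM2, the ubiquitin ligase that marks p53 for destruction. Cdkn2b, its neighbour, codes for INK4B, another cyclin D kinase inhibitor; both genes are often deleted in tumours and mark senescent cells. Trp53 codes for p53, which turns on Mdm2 and Cdkn1a, the gene for the kinase inhibitor p21. Rb1 codes for RB, which holds back E2F factors, and cyclin D1 (Ccnd1) and cyclin E1 (Ccne1) activate the kinases that release them. SV40 large T antigen binds p53 and the RB family, and loss of RB is known to raise INK4A.

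The deposited row for Cdkn2a pools reads of both transcripts, so INK4A and ARF cannot be told apart. Their separate start sites are shown first because of this, followed by the start of Cdkn2b and by the upstream start of Cdkn1a. The table of promoters had entries for 6 of the 8 genes; Rb1 and Ccnd1 were without one. Each printed run is the 250 bases before a transcription start in RefSeq (GRCm38.p6), read 5′ to 3′ on the gene's strand. Capitals mark an E2F string (TTTCCCGC, TTTGGCGC, TTTCGCGC or TTTGCCGC, on either strand) or a p53 half-site pair. Only full matches to the half-site letters are marked. The bases directly after the second Cdkn1a run miss a full match by their first letter and stay in lower case. The marked pair is thus not shown to be the element that p53 binds.
Cdkn2a at the Arf start, chr4:89294620-89294869, minus strand: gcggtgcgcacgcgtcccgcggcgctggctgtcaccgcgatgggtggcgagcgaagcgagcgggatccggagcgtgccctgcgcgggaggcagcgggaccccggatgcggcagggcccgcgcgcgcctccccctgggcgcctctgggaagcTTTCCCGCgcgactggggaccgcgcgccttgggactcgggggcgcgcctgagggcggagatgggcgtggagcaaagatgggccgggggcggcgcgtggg
Cdkn2a at the Ink4a start, chr4:89282193-89282442, minus strand: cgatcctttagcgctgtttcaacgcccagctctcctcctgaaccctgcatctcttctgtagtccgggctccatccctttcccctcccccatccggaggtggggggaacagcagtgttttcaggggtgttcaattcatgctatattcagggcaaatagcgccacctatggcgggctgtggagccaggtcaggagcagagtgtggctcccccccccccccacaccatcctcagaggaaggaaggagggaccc
Cdkn2b, chr4:89311033-89311282, minus strand: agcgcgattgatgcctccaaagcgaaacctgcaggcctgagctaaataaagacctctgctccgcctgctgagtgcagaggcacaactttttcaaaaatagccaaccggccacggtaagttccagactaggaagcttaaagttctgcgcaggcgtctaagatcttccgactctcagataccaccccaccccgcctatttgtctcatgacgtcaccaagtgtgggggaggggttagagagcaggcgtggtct
Cdkn1a at the upstream start, chr17:29090729-29090978, plus strand: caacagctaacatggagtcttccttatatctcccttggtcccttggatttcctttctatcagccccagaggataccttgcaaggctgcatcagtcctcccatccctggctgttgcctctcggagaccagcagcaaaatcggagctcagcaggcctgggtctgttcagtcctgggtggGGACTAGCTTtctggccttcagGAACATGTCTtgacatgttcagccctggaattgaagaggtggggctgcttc

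Of these members' 8 promoter entries, only the Arf start held one of the E2F strings, and only the upstream Cdkn1a start held the p53 pair. An E2F string stood in 611 of all 32851 promoters of the same length (1.86%). The p53 pair, 2 half-sites of 10 bases with at most 13 bases between them, stood in 21 (0.0639%). A match describes the letters and was not tested as a binding site.

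Libraries held 8106344 to 54906212 counted reads, with a median of 27175852, as recovered from the spacing of the RPKM values. The tumour labelled Mvt1 animal 5 goes against its label: it had Myc at 35.7 RPKM, against 354.2 to 412.1 in the other Mvt1 tumours and 32.1 to 50.1 in 4T1 tumours, and Mtap at 194.8 RPKM, against 1.45 to 2.08 in the other Mvt1 tumours and 141.6 to 194.6 in 4T1 tumours. The 2 libraries labelled M6 intracardiac lung metastasis, both of 1 animal, go against theirs as well, with 7 hepatocyte markers at a summed 6947 RPKM and 7 alveolar type 2 markers at 2.41 on average. Summed levels of 8 luminal epithelial markers were 1594 to 28900 RPKM in PyMT tumours and 21.6 to 104.6 in 67NR tumours, where 1 of the 8 reached 1 RPKM. In bulk tissue, fewer cells of a type and less RNA per cell cannot be told apart.

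Cdkn2a was at its highest mean in C3Tag tumours among the 22 primary tumour models, and M6 came after TSAE1 and HRM1. The 3 C3Tag tumours had 241.1, 247.4 and 334.0 RPKM. The 6 M6 tumours ran from 94.12 over a median of 138.5 to 261.3 RPKM. The 20 models without T antigen had means between 0.281 and 234.5 RPKM, with a median of 7.80 RPKM, so the ranges overlap.

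High Cdkn2a was not confined to the T antigen models. TSAE1 tumours had 228.8, 233.3, 233.4 and 242.5 RPKM and HRM1 tumours 113.4, 167.7, 219.3 and 248.8 RPKM. R3T averaged 151.5, Met1 145.5 and F311 125.6 RPKM. Then came D2A1 at 64.3, MMTV-Myc at 27.5 and 67NR at 16.3 RPKM, and the 5 PyMT crosses at 4.34 (FVB) to 10.9 (MOLF). At the bottom stood 4T07 (0.812), 4T1 (0.364), Mvt1 (0.293), E0771 (0.285) and 6DT1 (0.281 RPKM). The highest mean was 975.1 times the lowest. Of the 21 neighbouring pairs in this order, 20 had overlapping animals, and F311 stood above D2A1 without overlap.

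Transgenic tumours of 1 model spread widely. PyMT FVB tumours ran from 0.223 over a median of 2.51 to 23.6 RPKM, and MMTV-Myc tumours from 2.48 over 13.6 to 92.5 RPKM. The 2 MMTV-Neu tumours had 0.268 and 6.90 RPKM. Within the Met1 tumours, animal 1 had 37.0 RPKM against 130.3 to 193.6 in the other 6. Its 4 leukocyte markers summed to 2245 RPKM, against a median of 83.5 over the Met1 tumours; their part in its low value was not tested.

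**Figure D1:**
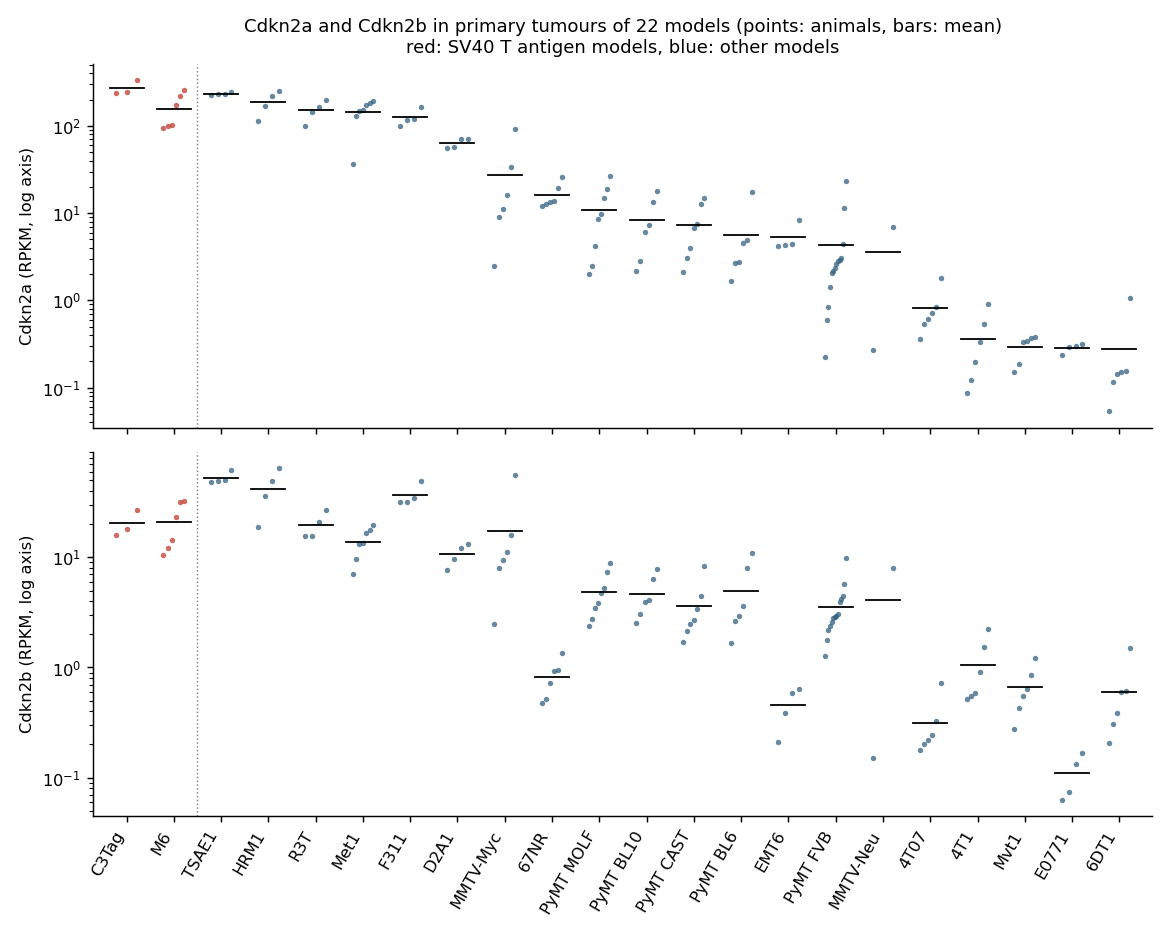
Cdkn2a and Cdkn2b level (RPKM, log axis) in primary tumours of 22 models; points are animals, bars model means, red the T antigen models C3Tag and M6, blue the others in order of their Cdkn2a mean. The red points lie at the top together with blue models such as TSAE1 and HRM1, and the blue models span about the whole axis.

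Cdkn2b followed Cdkn2a across the models. C3Tag tumours had 16.0, 18.0 and 27.1 RPKM, and M6 tumours ran from 10.6 over a median of 18.9 to 32.2 RPKM. Models without T antigen had means of 0.110 (E0771) to 52.7 (TSAE1) RPKM with a median of 4.36, and TSAE1, HRM1 (42.1) and F311 (36.8) were above both T antigen models. Across the 22 model means on the log2(RPKM + 1) scale, the Pearson correlation of both genes was 0.918 and the Spearman correlation 0.905, and Pearson's value was 0.914 without the T antigen models. The points share the tissue and the processing, so this is a description. The genes differed in 67NR, with 16.3 RPKM of Cdkn2a and 0.825 RPKM of Cdkn2b, and in EMT6, with 5.29 and 0.457 RPKM. After Cdkn2b, the genes most like Cdkn2a across the models were Rfc2 (0.827), a replication clamp loader subunit, and Mad1l1 (0.801), a spindle checkpoint gene, among 11365 genes compared.

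Trp53 varied less between models than Cdkn2a. M6 tumours ran from 46.9 over a median of 54.7 to 64.9 RPKM, and C3Tag tumours had 42.5, 46.6 and 50.2 RPKM. Other models averaged 6.80 to 63.4 RPKM with a median of 32.4, and 6DT1 (63.4) and E0771 (59.9) lay above both T antigen models. D2A1 was the lowest, with 5.49, 6.56, 7.58 and 7.59 RPKM, apart from 4T07, the next model at 14.6 RPKM. Wrap53, which overlaps Trp53 on the opposite strand, was at 5.55 RPKM in D2A1 against a median model of 4.65 RPKM; without a stated strand, reads of the overlap cannot be assigned.

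Mdm2 was set apart by 1 line. HRM1 tumours had 933.9, 937.5, 1010 and 1068 RPKM, 70.9 times the median model and without overlap with the next, 67NR at 57.3 RPKM. C3Tag tumours had 12.9, 13.8 and 16.3 RPKM and M6 tumours ran from 7.52 over 12.8 to 20.5 RPKM, close to the median of 13.9 RPKM over the models without T antigen. In R3T, 1 tumour had 59.8 RPKM and the other 3 had 12.8 to 14.3 RPKM.

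Cdkn1a, the p53 target for p21, was between the extremes in both T antigen models. C3Tag tumours had 50.0, 52.2 and 72.9 RPKM and M6 tumours ran from 16.7 over a median of 39.5 to 56.3 RPKM. The other models averaged from 10.4 (Met1) to 85.4 (67NR) RPKM, with a median of 33.7, and 4 of them lay above both T antigen models. The 2 MMTV-Neu tumours had 2.94 and 86.2 RPKM, below the lowest and above the highest model mean.

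Rb1 was highest in PyMT transgenics. Its means were 19.4 RPKM in FVB, 18.7 in BL10, 17.9 in CAST, 17.1 in BL6 and 10.5 in MOLF. C3Tag tumours followed with 6.57, 10.9 and 13.8 RPKM, and M6 tumours ran from 3.00 over 6.83 to 12.3 RPKM. The lowest means were 2.32 RPKM in D2A1 and 2.23 in E0771. Met1, a line from PyMT tumours, averaged 8.99 RPKM.

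Ccnd1 was lower in C3Tag than in any other model mean. The 3 C3Tag tumours had 15.9, 17.0 and 23.1 RPKM, while M6 tumours ran from 47.6 over 71.6 to 116.9 RPKM. The other models averaged 32.7 (MMTV-Myc) to 464 RPKM (67NR) with a median of 100.9. Ccne1 had the narrowest spread of model means, 5.89-fold: C3Tag tumours had 4.33, 6.79 and 12.3 RPKM, M6 tumours ran from 2.94 over 6.44 to 7.95, and the others averaged 2.07 (MMTV-Neu) to 12.2 RPKM (MMTV-Myc). No neighbouring models in the order of either cyclin were apart.

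**Figure D2:**
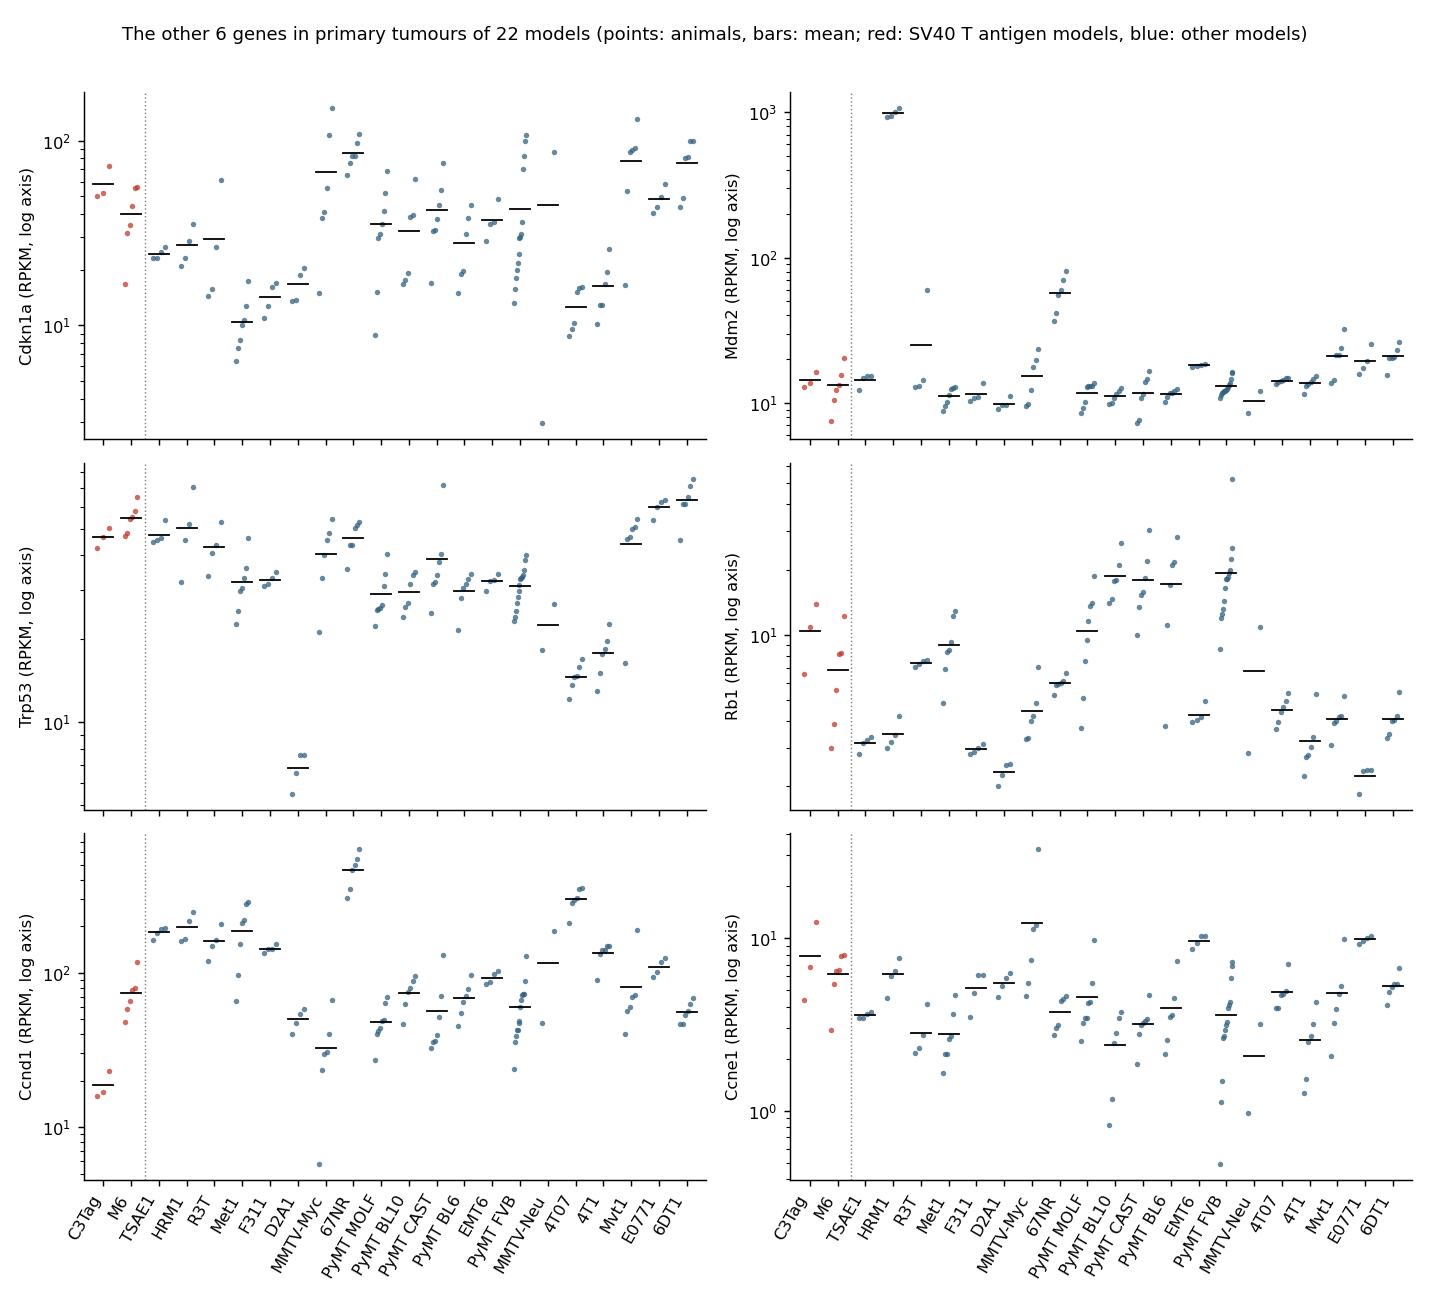
Levels (RPKM, log axis) of Cdkn1a, Mdm2, Trp53, Rb1, Ccnd1 and Ccne1 in primary tumours of the same 22 models, drawn as for Cdkn2a. HRM1 stands alone for Mdm2, D2A1 is lowest for Trp53, the PyMT crosses lead for Rb1, and C3Tag is lowest for Ccnd1.

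With the model as the unit, none of the 8 genes passed the test between the 2 T antigen models and the 20 others, where 6.67% of 12976 genes were called in either direction, 6.20% higher and 0.462% lower (limma on log2(RPKM + 1), Benjamini-Hochberg adjusted p under 0.05 over all genes tested). The difference for Cdkn2a was 4.12 on the log2 scale (SE 1.82, adjusted p = 0.217). Its exact permutation test over the 231 ways to choose 2 of 22 models gave a two-sided p = 0.0217, or 0.173 adjusted over the 8 genes; the smallest p this design allows is 0.00433. Cdkn2b differed by 1.90 (SE 1.21, adjusted p = 0.451), Ccnd1 by -1.40 (SE 0.72, adjusted p = 0.303), and the other 5 by -0.43 to 0.67, with adjusted p of 0.553 or more. The Cdkn2a difference was 3.67 without C3Tag and 4.56 without M6; that of Ccnd1 was -0.46 without C3Tag and -2.35 without M6. Set against the 7 other transgenic models, C3Tag alone was higher by 5.37 for Cdkn2a and by 1.99 for Cdkn2b. Of these 7 models, 5 are PyMT crosses that share a transgene, so they are not independent for the driver. M6 alone against the 13 other allografts differed by 3.23 for Cdkn2a and by 1.84 for Cdkn2b. Both comparisons have 1 model on the T antigen side, so only the size of the difference is given.

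Around these genes, E2F targets stood higher in the T antigen models. Of 34 listed E2F target genes, 25 rose and 0 fell, with a median difference of 1.50 against 0.11 over all genes tested. They included the replication genes Cdc6 (1.82) and Mcm7 (1.72), the histone methyltransferase gene Ezh2 (1.58) and the methylation maintenance gene Uhrf1 (1.99). Fewer of them were called without M6 or without C3Tag, and so were fewer genes in all. Either choice leaves 1 model on the T antigen side. Of 22 cyclins, kinases and inhibitors of the RB pathway, 8 rose, among them E2f2 (1.85), Cdkn2d (1.55), Ccne2 (1.05) and Cdk2 (0.90), and this count was 1 when profiles were rescaled by their median ratio, called centring here. Of 28 p53 target genes 0 were called, with a median of 0.13. Of 15 p53 regulators 2 rose, the kinase gene Chek1 (1.40) and the deubiquitinase gene Usp7 (0.60). Chek1 is also on the list of E2F target genes and is counted there as well. Over all genes 805 were higher and 60 lower, or 430 and 100 after that centring.

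The closest controls for C3Tag are the other FVB transgenics, compared over animals: 3 C3Tag tumours against PyMT FVB, MMTV-Myc and MMTV-Neu, the 3 averaged. Here 46.7% of 12790 genes were called, 35.6% higher and 11.2% lower. Among the members 3 rose and 1 fell, a count near that share. Cdkn2a rose by 5.54 (SE 0.76, adjusted p = 2.58e-06), with no C3Tag tumour below 241.1 RPKM and no control tumour above 92.5 RPKM. Cdkn2b rose by 1.91 (SE 0.55, adjusted p = 0.00645), although 1 MMTV-Myc tumour at 56.0 RPKM was above all 3 C3Tag tumours. Trp53 rose by 0.62 (SE 0.20, adjusted p = 0.0128), a call lost on centring (0.28, adjusted p = 0.203) and without C3Tag replicate 1 (0.57, adjusted p = 0.0675). Ccnd1 fell by 1.44 (SE 0.48, adjusted p = 0.0162), and this call was lost without C3Tag replicate 1 or 3 or MMTV-Neu replicate 1 (adjusted p = 0.0634, 0.0687 and 0.0624).

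The differences of Cdkn1a (0.84, adjusted p = 0.346), Mdm2 (0.19, 0.439), Rb1 (0.33, 0.451) and Ccne1 (0.70, 0.222) did not pass. The Cdkn1a value depended on the 2 MMTV-Neu tumours, at 1.59 (adjusted p = 0.0434) without replicate 1 and 0.097 (adjusted p = 0.916) without replicate 2. Against PyMT FVB alone, Rb1 was on the lower side in C3Tag (-0.76, adjusted p = 0.0699), and did not pass either. Of the E2F targets, 32 of 34 rose (median 1.60 against 0.29 over all genes), led by Pole (2.63), Rfc3 (1.71), Mcm3 (2.61) and Ezh2 (1.80). In the RB pathway list 12 of 22 rose, among them the INK4D gene Cdkn2d (2.62), E2f1 (2.56), E2f2 (2.35) and the RB relative Rbl1 (1.67). Of 28 p53 targets 10 rose and 1 fell, or 5 and 4 after centring, which moved the split over all genes to 2746 higher and 2637 lower from 4550 and 1429.

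Cell content moved with this comparison. The 8 luminal markers summed to 1203 to 1689 RPKM in C3Tag tumours, against 1594 to 13280 in PyMT FVB, 11240 to 14430 in MMTV-Neu and 1639 to 6771 in MMTV-Myc tumours. Fibroblast markers summed to 433.5 to 683.4 RPKM in C3Tag, 13.3 to 502.5 in PyMT FVB and 136.6 to 1033 in MMTV-Myc tumours. Their part in the differences was not tested.

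M6 was set against the FVB allograft lines Met1, 6DT1 and Mvt1, averaged, as orthotopic tumours. Of 11967 genes 54.5% were called, 28.5% higher and 26.0% lower. Among the members 3 rose and 1 fell, a count near that share. Cdkn2a rose by 4.62 (SE 0.25, adjusted p = 6.27e-13) and Cdkn2b by 2.59 (SE 0.21, adjusted p = 6.09e-10). These values average unlike lines: Met1 tumours had 145.5 ± 52.7 RPKM of Cdkn2a (SD, n = 7), near the 158.5 ± 70.6 of M6 (SD, n = 6), and the difference rests on 6DT1 and Mvt1, with under 1.1 RPKM in every tumour. Ccne1 rose by 0.48 (SE 0.19, adjusted p = 0.0407) and Mdm2 fell by 0.38 (SE 0.16, adjusted p = 0.0468), calls that were lost when genes of low level were kept in the test (0.0561 and 0.0631); that of Ccne1 was also lost on centring (0.43, adjusted p = 0.0678). Cdkn1a (0.01), Trp53 (0.32), Rb1 (0.21) and Ccnd1 (-0.28) did not pass, with adjusted p of 0.126 or more.

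All 34 E2F targets rose in M6 in this comparison, with a median of 1.52 against -0.003 over all genes, led by Cdc6 (2.26), Mcm7 (1.91), Gins2 (2.35) and Mcm5 (2.47). Among 27 p53 targets 7 rose and 11 fell: Perp (3.27), which codes for a desmosomal protein, rose, and Trp53inp1 (-2.13), Eda2r (-1.53) and Fas (-1.53), the last a death receptor gene, fell. Leukocyte markers summed to 28.6 to 93.6 RPKM in M6 tumours, against 40.2 to 2245 in Met1, 183 to 521 in 6DT1 and 137 to 296 in Mvt1, and their part was not tested.

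M6 and C3Tag share T antigen and differ in host and in growth as a line. Of 11742 genes 14.8% were called between their tumours, 2.36% higher and 12.5% lower in M6, and 1 member was: Ccnd1 rose by 1.90 (SE 0.26, adjusted p = 0.00114), without overlap between tumours. Cdkn2a differed by -0.89 (SE 0.34, adjusted p = 0.110), with 1 of the 6 M6 tumours inside the C3Tag range. Of 27 p53 targets 0 rose and 6 fell in M6, among them Btg2 (-1.33), Fas (-1.46), Gdf15 (-1.44) and Trp53inp1 (-1.20), and 3 of them fell after centring.

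**Figure D3:**
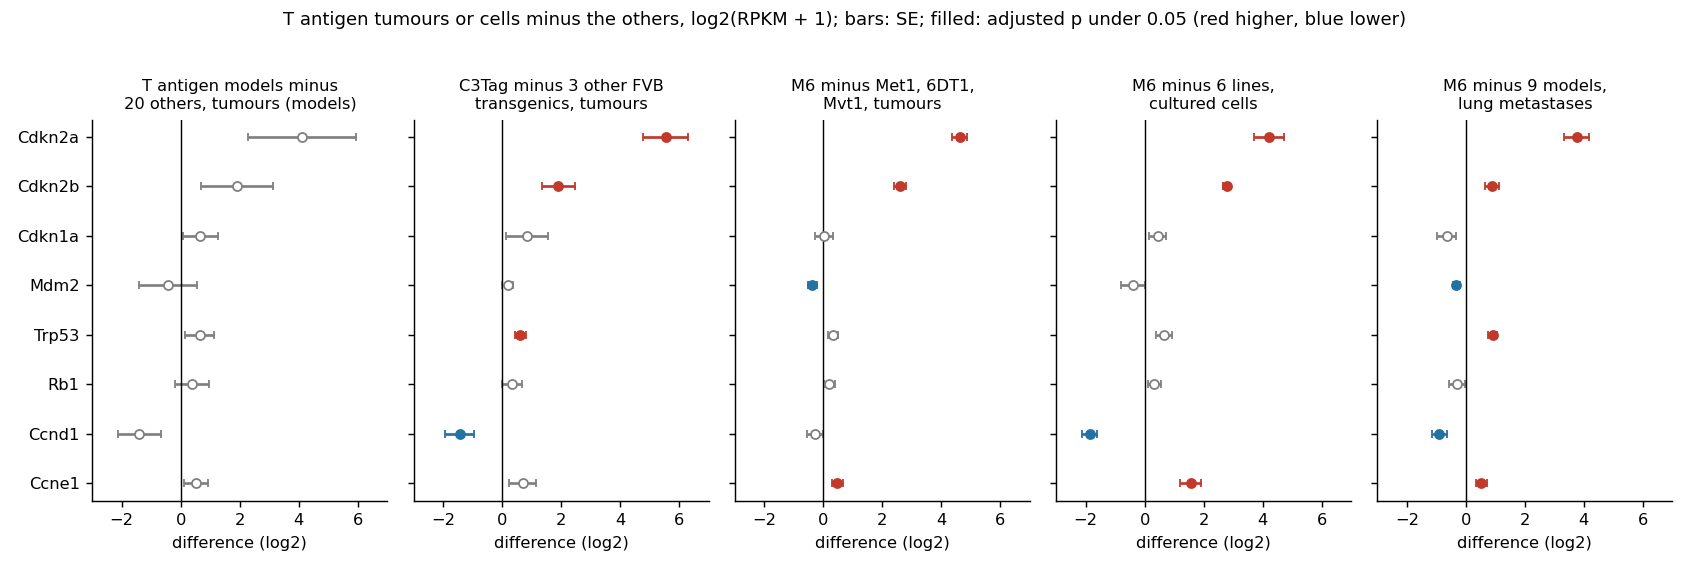
Difference in log2(RPKM + 1) with its SE for the 8 genes in 5 comparisons: T antigen models minus 20 others, C3Tag minus 3 FVB transgenic models, M6 minus Met1, 6DT1 and Mvt1 tumours, M6 minus 6 cultured lines, and M6 minus 9 models in lung metastases; filled points passed the test (red higher, blue lower). Cdkn2a lies between 3.76 and 5.54 in the 5 comparisons and is filled in the 4 that compare animals or cultures; the M6 comparisons share its line, and the first comparison uses the tumours of the next 2.

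Cultured cells hold no stroma, and their leukocyte markers summed to 0.0683 to 2.08 RPKM. M6 cultures had Cdkn2a at 39.1, 44.8 and 115.2 RPKM. Met1 cultures had 52.3, 57 and 65.9 RPKM, and 67NR cultures 4.19, 4.62, 51.5 and 53 RPKM, with its low and high pairs in different library sets. The 14 cultures of 4T1, 4T07, 6DT1 and Mvt1 together held 15 Cdkn2a reads and 3 Cdkn2b reads of 381664123 counted reads, where 3 reads correspond to 0.0616 to 0.0961 RPKM of Cdkn2a. The same gene took 1657 to 4363 reads in each M6 culture. So Cdkn2a was near 0 in 4 of 7 lines and present in the other 3, M6 among them.

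Set against the 6 other lines averaged, M6 cultures had 43.0% of 11870 genes called, 25.2% higher and 17.8% lower. Among the members 3 rose and 1 fell, a count near that share. The p-values of this comparison measure the spread between the libraries of a line, not between lines. These libraries are named AS or isolation, and no label says that they are separate cultures. Cdkn2a rose by 4.21 (SE 0.49, adjusted p = 6.72e-07) and Cdkn2b by 2.79 (SE 0.11, adjusted p = 4.57e-14), while Met1 cultures, with 11.8, 14.9 and 18.0 RPKM of Cdkn2b, overlapped the 8.30, 10.1 and 15.4 RPKM of M6. Ccne1 rose by 1.56 (SE 0.36, adjusted p = 0.00165): M6 cultures had 10.5, 14.9 and 17.6 RPKM, against 5.92 to 11.8 in 4T07 and 1.12 to 8.70 in the other lines. Ccnd1 fell by 1.86 (SE 0.25, adjusted p = 4.93e-06), with 52.9, 53.5 and 65.6 RPKM in M6, against 467 to 792 in 67NR and 44.3 to 60.6 in Mvt1, which overlaps M6.

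Trp53 was at 64.3, 79.3 and 81.2 RPKM in M6 cultures, against 11.8 to 40.3 in 4T1, 16.6 to 29.3 in 4T07 and 51.6 to 103.1 in the other 4 lines. Its difference of 0.65 (SE 0.27) had an adjusted p of 0.0645, and passed without the pair of 67NR cultures named isolation (0.70, adjusted p = 0.0432) or without either of 2 cultures of 4T1 (0.69 each). Cdkn1a (0.44, adjusted p = 0.247), Mdm2 (-0.40, 0.444) and Rb1 (0.33, 0.251) did not pass; Cdkn1a was called without M6 culture 3 (0.91), and Mdm2 without the 67NR cultures named isolation (-0.60). Of the E2F targets 25 of 34 rose (median 1.14 against 0.09), and of 27 p53 targets 5 rose and 1 fell, with Perp (2.80), Pmaip1 (2.60), Psrc1 (2.09) and Ddb2 (1.24) among the risers.

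The gene next to Cdkn2a, Mtap, which codes for a methionine salvage enzyme, divided the lines without Cdkn2a. Mtap averaged 178.1 RPKM in 4T1 and 274.8 in 4T07 cultures, against 0.0772 in 6DT1 and 0.0591 in Mvt1 cultures; 6DT1 held 0 to 24 and Mvt1 2 to 9 Mtap reads a culture. In M6 cultures it averaged 30.2 RPKM. Mir31, a microRNA gene farther along, was listed at 0 in 6DT1 and Mvt1 cultures and at 27.3 to 106.1 RPKM in the others. These neighbours were chosen after their values were seen, and the DNA was not measured.

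Neighbours of Mdm2 were high with it in HRM1 tumours. On 1 side of the gene order, Cpm ran from 313 over a median of 353.3 to 3138 RPKM in the 4 tumours, against a median model of 1.07 RPKM. On the other side, Slc35e3 ran from 41.3 over 49.7 to 318.8 RPKM against 8.83, and Nup107 from 56.6 over 108.1 to 160.5 RPKM against 9.48. Rap1b ran from 309.1 over 474 to 926.4 RPKM against 105.4, and Mdm1 from 39.96 over 83.8 to 157.1 RPKM against 2.40. For Cpm and Slc35e3 a single tumour was far above the rest, and the lowest tumour was still above the median model for all 5 genes. Farther out, Cpsf6 (12.6 against 13.9), Frs2 (4.15 against 5.63) and Dyrk2 (3.28 against 3.26 RPKM) were close to the median model. So the raised genes formed 1 run in the order of GRCm38.p6. 67NR, the second for Mdm2, had Slc35e3 at 22.7, Nup107 at 26.1 and Rap1b at 233 RPKM, but Cpm at 0.30 RPKM. The genes most like Mdm2 over the models were Mdm1 (0.912), Hgfac (0.902) and Nup107 (0.901). These are Pearson values over all models, HRM1 lies far above the rest for Mdm2, and they were not computed without it.

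**Figure D4:**
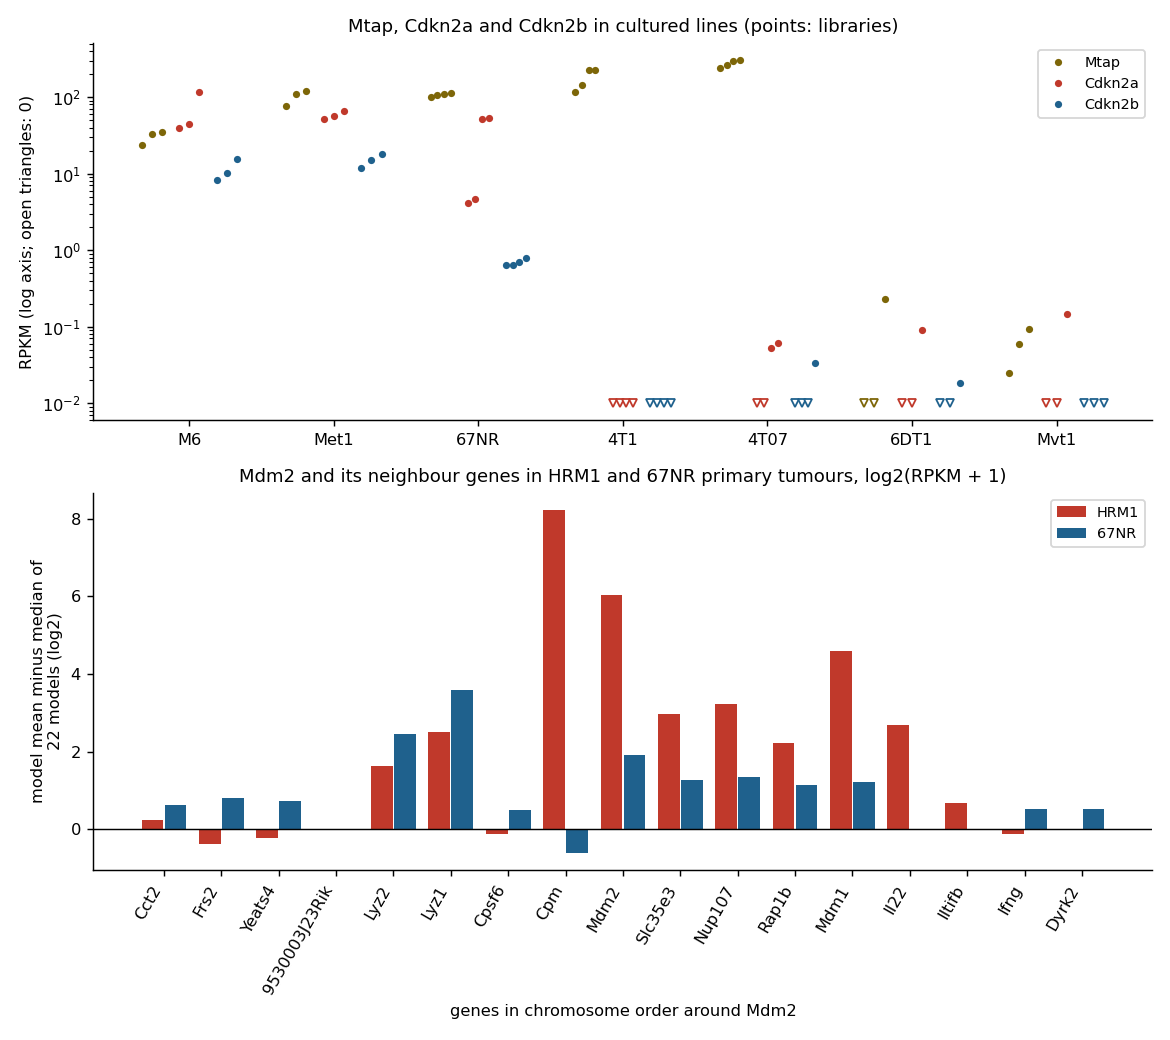
Top, RPKM of Mtap, Cdkn2a and Cdkn2b in cultured cells of 7 lines, M6 first, with each point a culture and open triangles at 0. Bottom, HRM1 (red) and 67NR (blue) model mean minus the median of 22 models on the log2 scale for genes in order around Mdm2; in HRM1 Mdm2 lies at 6.05 and Cpm at 8.23.

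Met1 tumours averaged 186.2 RPKM of Ccnd1, against a median model of 86.9 RPKM, and overlapped the neighbouring models in the order. On 1 side of the gene, Cttn was at 167 against a median model of 70.2, Ppfia1 at 21.1 against 7.12, Fadd at 9.60 against 4.03 and Ano1 at 115 against 18.8 RPKM in Met1, while Fgf3, Fgf4 and Fgf15 were near 0 in both. On the other side, Tpcn2 was at 9.16 against 4.00 and Mrgprf at 0.866 against 0.933 RPKM. In 67NR, the highest model for Ccnd1 at 464 RPKM, Cttn was at 82.7, Fadd at 3.43 and Ano1 at 0.52 RPKM. The gene most like Ccnd1 over the 22 models was Oraov1 (Pearson 0.958).

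The study's own question was the step to metastasis. In 10 models with paired orthotopic or transgenic tumours and lung metastases, a shared difference over models was tested. It called 31.7% of 11467 genes, 11.3% higher and 20.4% lower in metastases, and 2 of the 8 members, a count near that share. Of these models, 5 are PyMT crosses that share a transgene, and Met1 is a PyMT line, so they are not independent for the driver. Cdkn2b rose by 0.54 (SE 0.18, adjusted p = 0.0367) and Rb1 fell by 0.33 (SE 0.12, adjusted p = 0.0437). Both calls were lost when genes of low level were kept (0.0830 and 0.0934). The Rb1 difference was largest in PyMT crosses: -1.07 in CAST, -0.93 in BL6, -0.57 in BL10, -0.455 in MOLF and -0.19 in FVB. In the allograft lines it was 0.144 in 4T1, -0.052 in 6DT1, -0.003 in Mvt1, -0.029 in Met1 and -0.123 in M6. After centring, Rb1 was lost (-0.28, adjusted p = 0.0664) while Mdm2 (0.18, 0.0497) and Ccne1 (0.31, 0.0459) were called. Cdkn2a (0.41, 0.164), Cdkn1a (0.31, 0.111), Trp53 (-0.13) and Ccnd1 (0.12) did not pass.

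Within models, the Cdkn2b rise was seen in low-level lines. In 6DT1, metastases had 1.70 over a median of 2.41 to 3.29 RPKM, against 0.208 to 1.49 RPKM in the tumours. All 6 pairs rose, by 1.13 on average (SE 0.13, adjusted p = 7.25e-04), where 34.4% of 11121 genes were called. In 4T1 it rose by 1.11 (SE 0.22, adjusted p = 0.0190, 6 of 6 pairs), where 12.1% of genes were called, 7.36% higher and 4.75% lower. It had 2.07 to 4.58 RPKM in metastases against 0.514 to 2.24 in tumours. In Mvt1 it rose by 0.85 (SE 0.21, adjusted p = 0.0219, 6 of 6 pairs; 29.0% called), and by 1.01 without the tumour of animal 5 (adjusted p = 0.00542). Without that tumour Trp53 fell in Mvt1 metastases by 0.51 (adjusted p = 0.00362), a call not made with it. In 6DT1, 4T1 and Mvt1, Cdkn2b met the filter of 1 RPKM through the metastases alone, the group where it was higher. With genes of low level kept in the limma test, its adjusted p was 0.00242 in 6DT1, 0.0366 in 4T1 and 0.0387 in Mvt1.

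PyMT crosses gave calls for BL6 (1.28, SE 0.21, adjusted p = 0.0326, 5 of 5 pairs; 0.651% of genes called, 0.392% higher) and CAST (0.76, SE 0.15, adjusted p = 0.0238, 7 of 7 pairs; 4.51% called, 1.31% higher). The BL6 metastases had 5.34, 7.90, 9.99, 13.1 and 14.7 RPKM, against 1.68, 2.65, 2.96, 3.64 and 8.03 RPKM in the paired tumours. Both calls were lost without the replicate block (adjusted p = 0.123 and 0.181), and that of BL6 also when low-level genes were kept (0.176) or without any of 3 pairs (0.105 to 0.122). Cdkn2a was higher in all 5 BL6 metastases (2.11, adjusted p = 0.0753), a difference that passed without the first pair (1.67, adjusted p = 0.0284). PyMT FVB (0.78, adjusted p = 0.165, 11 of 12 pairs; 1.27% called), MOLF (0.34, 0.640; 1.10% called), BL10 (0.04; 2.56% called) and Met1 (-0.08; 0.317% called, 0.0544% lower) did not pass.

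Lung tissue moved with these values. Healthy FVB lung had 14.1, 16.0, 17.1 and 17.1 RPKM of Cdkn2b, above the metastases of 4T1, 6DT1, Mvt1 and BL6, apart from the highest of BL6, and lung beside PyMT FVB metastases had 14.6 to 20.0 RPKM. The 7 alveolar type 2 markers summed to 453.6 to 7710 RPKM in 4T1 metastases, 2121 to 6509 in 6DT1, 829.7 to 8028 in Mvt1, 7.59 to 7510 in BL6 and 646.5 to 3923 in CAST, against 0.97 to 55 in tumours apart from BL6, whose tumours reached 678.1, and 10180 to 16330 in healthy lung. The part of lung RNA in the Cdkn2b rise was not tested.

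M6 moved the other way. Its lung metastases had Cdkn2b at 8.37 over a median of 11.3 to 11.8 RPKM, against 10.6 over 18.9 to 32.2 RPKM in the tumours, and 5 of 6 pairs were lower in the metastasis. Within M6 the difference of -0.80 (SE 0.21) did not pass (adjusted p = 0.0682; 4.71% called, 3.65% higher and 1.06% lower). Set against the other 9 models, the met-minus-primary difference was lower in M6 by 1.50 (SE 0.29, adjusted p = 0.00134), the 1 member called where 3.10% of 13565 genes were, 2.18% higher and 0.921% lower. Cdkn2a was lower in 6 of 6 M6 metastases, at 69.4 over a median of 88.8 to 140.9 RPKM, against 94.1 over 138.5 to 261.3 RPKM in the tumours (-0.62, adjusted p = 0.119), and its difference from the other models did not pass (-1.14, adjusted p = 0.109). That of Ccnd1 did not either (-0.90, adjusted p = 0.0649), and passed without the Mvt1 tumour of animal 5 (-0.92, adjusted p = 0.0469). Healthy lung had 1.85, 1.88, 2.54 and 2.79 RPKM of Cdkn2a, under every M6 tumour, and M6 metastases held 1484 to 9324 RPKM of alveolar type 2 markers, the part of which was not tested.

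Rb1 fell in CAST, at 5.21 over a median of 7.72 to 9.75 RPKM in metastases, against 9.96 over 15.8 to 30.6 RPKM in tumours. All 7 pairs fell, by 1.07 on average (SE 0.18, adjusted p = 0.0134), without overlap of the groups, where 3.20% of genes were called lower. In BL6 all 5 pairs were lower in the metastasis (-0.93, adjusted p = 0.127), in BL10 5 of 6 (-0.57, 0.120). Healthy lung had 6.71, 7.03, 7.21 and 8.34 RPKM of Rb1, below every PyMT FVB tumour (8.56 or more). With all samples in, the other members were called within the 10 models in 6DT1 alone: Ccne1 rose by 0.64 (adjusted p = 0.00293, 6 of 6 pairs), with 7.63 to 11.1 RPKM in metastases against 4.08 to 6.66 RPKM in tumours, and Mdm2 rose by 0.37 (adjusted p = 0.0287). Ccnd1 was called there on centring (0.31, adjusted p = 0.0253). Healthy lung had 0.242 to 0.457 RPKM of Ccne1.

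**Figure D5:**
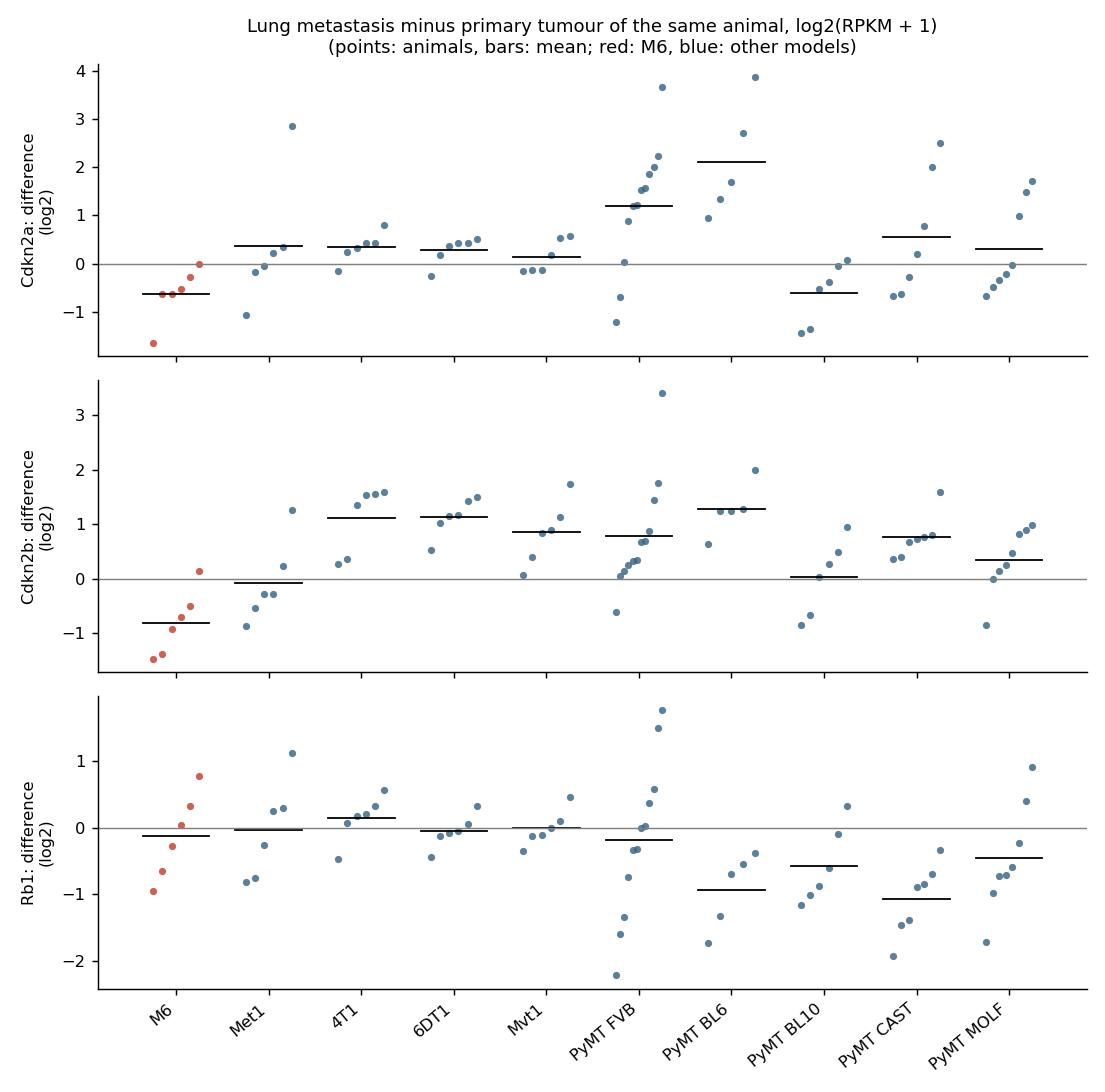
Lung metastasis minus primary tumour in log2(RPKM + 1) for each animal, for Cdkn2a, Cdkn2b and Rb1 in 10 models, M6 first in red. Cdkn2b lies above 0 in all pairs of 4T1, 6DT1, Mvt1, BL6 and CAST and below 0 in 5 of 6 M6 pairs; Rb1 lies below 0 in all CAST and BL6 pairs.

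In lung metastases themselves, M6 was set against the other 9 paired models, which include 4T1 and the 5 PyMT crosses beside Met1, 6DT1 and Mvt1. Of 13010 genes 45.0% were called, 27.1% higher and 17.9% lower, and 4 members rose and 2 fell. Cdkn2a rose by 3.76 (SE 0.42, adjusted p = 2.54e-11), Trp53 by 0.91 (SE 0.15, adjusted p = 6.17e-07), Cdkn2b by 0.89 (SE 0.23, adjusted p = 0.00125) and Ccne1 by 0.53 (SE 0.20, adjusted p = 0.0240), a call lost on centring (0.42, adjusted p = 0.0590). Ccnd1 fell by 0.90 (SE 0.26, adjusted p = 0.00342) and Mdm2 by 0.33 (SE 0.11, adjusted p = 0.0134). Met1 metastases had 72.2 to 275 RPKM of Cdkn2a, around the 69.4 to 140.9 of M6. All 34 E2F targets rose, with a median of 1.57, and of 28 p53 targets 9 rose and 8 fell.

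M6 metastases in the liver after intracardiac injection had Cdkn2a at 29.1, 29.9, 35.5, 48.1, 51.5, 80.2 and 83.3 RPKM, against 0.0615, 0.0747, 0.0845, 0.124 and 0.151 RPKM in adjacent liver. All 8 members rose in this comparison, where 93.2% of 10970 genes were called and 81.9% higher, so the count is near the background. Cdkn2a rose by 5.72 (SE 0.17, adjusted p = 2.53e-17) against a median of 1.35 over all genes. On centring, Mdm2 (-0.15, adjusted p = 0.271), Ccnd1 (-0.32, adjusted p = 0.319) and Cdkn1a (1.51, adjusted p = 0.102) no longer passed, and the split over all genes was 4089 higher and 5111 lower, against 8980 and 1241 before. The 7 hepatocyte markers summed to 7430 to 35820 RPKM in metastases and 23250 to 40920 in adjacent liver, and their part was not tested.

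At other sites Cdkn2a ran from tumour level to background. M6 intracardiac metastases in the spleen had 56.8 and 63.0 RPKM, the animal with libraries labelled lung metastasis 82.0, and orthotopic M6 liver metastases 48.3, 82.4 and 85.5 RPKM. The M6 brain metastasis had 0.57 and the Met1 brain metastasis 0.978 RPKM, 1 library each. Met1 liver metastases had 79.1 and 87.3 RPKM, while Met1 spleen metastases had 0.835 and 1.44 RPKM, near the 0.148 and 0.266 of adjacent spleen, and erythroid markers summed to 14350 to 20370 RPKM in them and 25680 to 46210 in adjacent spleen. How much tumour tissue these libraries hold was not tested.

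Against cultured cells of their own line, tumours of 7 lines had lower Trp53 (-0.56, SE 0.13, adjusted p = 0.0145) and Mdm2 (-0.60, SE 0.14, adjusted p = 0.0146). These were 2 of the 6 members that passed the filter on low levels, where 21.7% of 10646 genes were called and 9.60% lower; Cdkn2a and Cdkn2b were left out by that filter. Without the replicate block for the line, the adjusted p were 0.444 for Trp53 and 0.471 for Mdm2. Rb1 differed by 0.33 (adjusted p = 0.0749). Of the p53 targets 2 rose and 5 fell, among them Dram1 (2.00) and Sesn1 (1.03) on the higher side and Plk2 (-1.45) and Sesn2 (-1.36) on the lower.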

How the data were processed

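The authors deposited RPKM values per gene and library, in a single table for the whole series. Per the submitters' processing notes, reads were handled with the mm9 build, TopHat and DESeq2, whose versions and settings are not given in the sources used here, nor is the strand setting. From these deposited RPKM values, counted reads were recovered only to give depth and read numbers; no count test was run. The precision of a low level is set by this depth, and floors cover counting error only.

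Groups follow the source, cell line and strain labels. Where titles differ from these, the labels were kept: 1 Met1 and 2 MOLF tumours carry metastasis titles, and 6 Mvt1 tail vein metastases carry Met1 titles. The strain label was not followed for 1 PyMT FVB tumour labelled MOLF, 1 6DT1 culture labelled BALB and the mixed labels of C3Tag and M6. Libraries of 1 animal and tissue were averaged. Differences were tested two-sided with limma 3.58.1 (R 4.3.3; trended and robust) on log2(RPKM + 1), so folds of low genes are understated. A gene was kept if the number of profiles with 1 RPKM or more reached the size of the smaller group, and called at a Benjamini-Hochberg adjusted p under 0.05 over all genes kept. Comparisons with several control models weighted these equally. The fit was checked on simulated data.

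Metastases were paired with tumours by the animal number of the labels and tumours with cultures by line; the median correlation of paired deviations ran from -0.032 in BL6 to 0.385 in MOLF. Named genes are the 8 members, the called genes of each pathway list with the 4 smallest adjusted p, and the 3 genes most like a member among those averaging 1 RPKM or more. Members, lists and comparisons were chosen with earlier results of these data known. Alternatives were a pseudocount of 0.1, no filter, centring on the median ratio, no replicate block and leaving out replicates, models or the Mvt1 tumour of animal 5, which was chosen after seeing the data. No pair of libraries held identical values.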

Additional observations from a re-analysis of the deposited data

Results flagged for a closer look

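Of 312 sets of animals and members with 4 to 10 values, 20 held a value far from the rest (6.41%), where chance gives about 1 in 20. Cdkn2a was 1.07 RPKM in 1 6DT1 tumour (others 0.0534 to 0.155), 36.98 in 1 Met1 tumour (others 130.3 to 193.6) and 8.30 in 1 EMT6 tumour (others 4.19 to 4.39). Cdkn2b was 0.725 RPKM in 1 4T07 tumour (others 0.178 to 0.324) and 0.0331 in 1 4T07 culture, where the others are listed at 0. Cdkn1a was 95.1 RPKM in 1 orthotopic (others 72.6 to 78.5) and 93.8 in 1 tail vein Mvt1 lung metastasis (others 71.4 to 77.6), 21.2 in 1 CAST metastasis (others 40.2 to 58.2) and 4.25 in 1 M6 liver metastasis (others 14.5 to 28.4).

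Mdm2 was 59.8 RPKM in 1 R3T tumour (others 12.8 to 14.3), 12.3 in 1 TSAE1 tumour (others 14.9 to 15.4) and 21.5 in 1 BL6 metastasis (others 11.5 to 14.2). Rb1 was 5.43 RPKM in 1 orthotopic (others 3.04 to 3.59) and 5.99 in 1 tail vein 4T1 metastasis (others 2.75 to 3.68), and 1.84 in 1 E0771 tumour (others 2.34 to 2.38). Ccnd1 was 289.2 RPKM in 1 4T1 metastasis (others 155.7 to 177.6) and 89.1 in 1 4T1 tumour (others 132.8 to 148.5). Ccne1 was 4.50 RPKM in 1 Met1 metastasis (others 1.24 to 2.10).

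The tumour labelled Mvt1 animal 5, which goes against its label, had Trp53 at 16.4 RPKM (others 45.7 to 54.4) and Ccnd1 at 188.6 RPKM (others 39.9 to 71.2).

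The Cdkn2b difference of metastasis minus tumour in M6 minus that in 9 other models was -1.495 on the log2 scale; the test of that difference had an adjusted p of 0.00134 (limma).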

How the results depend on the processing

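Counts of called genes moved by over 1.5 times in these cases. Between T antigen models and others, 865 genes became 1544 with no filter, 530 on centring, 145 without C3Tag, 161 for M6 against 13 other allografts and 2236 for C3Tag against 7 other transgenics. For metastases against tumours, no filter gave 8 calls in Met1 (35 with it), 315 in PyMT FVB (141), 2 in BL6 (73) and 11 in BL10 (287), and centring gave 162 in BL10 and 334 in CAST (505). Without the replicate block, Met1 had 59 calls, BL10 545 and tumours against cultures 859 (2312 with it). In BL10, Ccne1 was called without this block (1.10 with it, adjusted p = 0.0692). Beside the Cdkn2b calls of BL6 and CAST and the Trp53 and Mdm2 calls of tumours against cultures, leaving out the block changed no other call of a member. Leaving out 1 replicate gave 755 to 1077 calls for M6 against C3Tag when a C3Tag tumour was left out (1740 with all), and 203, 41, 35, 25 and 57 in BL6 (1 pair left out in turn). In M6 liver metastases against adjacent liver, Mdm2 (-0.15, adjusted p = 0.271) and Ccnd1 (-0.32, adjusted p = 0.319) changed sign on centring without passing the test; centring moves all genes of a profile alike. The cause was not tested. Depth limits Cdkn2a and Cdkn2b in lines where 3 reads or fewer were counted, and the 2 T antigen models share an origin.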

Other observations

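Met1 tumours removed by surgery had more Cdkn2a than the final tumours of the same 4 animals. The resected tumours had 302.7, 256.4, 266.9 and 278.1 RPKM, against 37.0, 130.3, 148.2 and 172.5 RPKM in the final tumours of the same animals, higher in 4 of 4. Ccnd1 was likewise higher in 4 of 4 resected tumours, at 665.4, 338.4, 309.0 and 213.0 RPKM, against 65.5, 208.6, 285.1 and 152.4 RPKM. Ccne1 ran the other way, at 1.32, 0.649, 1.92 and 1.94 RPKM in resected tumours, against 3.61, 1.66, 4.67 and 2.61 RPKM in final ones. Stage and time of removal cannot be told apart in these animals, and no test was run.

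Across the 22 model means, Cdkn1a and Trp53 had a Pearson correlation of 0.64 and a Spearman correlation of 0.617 on the log2 scale, and Mdm2 and Trp53 had 0.326 and 0.675. Both are descriptions over models that share tissue and processing. The gene most like Rb1 was Clcn4-2 (0.914), the one most like Trp53 was Fam92a (0.827), the one most like Cdkn1a was Fam111a (0.775) and the one most like Ccne1 was Rcc1 (0.882).

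Cyclin E1 was high in spleen without a labelled tumour: spleen beside Met1 metastases had 52.5 and 69.1 RPKM of Ccne1, above every primary tumour model's mean.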
